A study of Mus musculus with 12 samples.

Results

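Macrophages are the resident phagocytes of the fetal gonad, and 10 genes that mark them were followed across sorted cells of mouse gonads at E13.5. The genes were chosen by symbol: Csf1r, C1qa, C1qb, C1qc, Tyrobp, Fcer1g, Mrc1, Cd68, Ptprc and Cx3cr1. All 10 were among the 12845 genes of both expression tables. The embryos came from matings of Oct4GFP males, and the strain is given as Oct4GFPxICR. The green fluorescent protein (GFP) reporter marks germ cells, and flow cytometry parted GFP-positive primordial germ cells (PGCs) from GFP-negative soma. The 12 libraries comprised 3 each of female PGC, male PGC, female soma and male soma, and no treatment separated them. The soma fraction is everything in the gonad without the reporter, and it was not sorted for macrophages or for any other cell type. How many embryos entered a library was not given in the sources used here.

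Macrophages depend on the receptor CSF1R, which binds the growth factors CSF1 and IL34 and keeps the cells alive and dividing. They take up dying cells and debris, and they are the main source of the complement protein C1q, which tags such material. In the fetal mouse gonad they arrive from early haematopoietic sites, and in the testis they are known to lie by the forming vessels and cords. Spi1 encodes PU.1, the transcription factor that opens many genes of the myeloid lineage, and its binding site contains the core GAGGAA.

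Of the 10 genes, 7 had an entry in the RefSeq promoter table (GRCm38.p6), which covers Mrc1, Ptprc, Cx3cr1, C1qb, C1qc, Fcer1g and Cd68. The 250 bases before the RefSeq start are shown for the neighbouring complement genes C1qb and C1qc, and for Mrc1, which had the most matches of the 3. Capitals mark GAGGAA or its reverse complement TTCCTC. The windows are chr4:136886201-136886450 on the minus strand for C1qb, chr4:136892915-136893164 on the minus strand for C1qc and chr2:14229164-14229413 on the plus strand for Mrc1, each read 5′ to 3′ on the strand of its gene.
C1qb: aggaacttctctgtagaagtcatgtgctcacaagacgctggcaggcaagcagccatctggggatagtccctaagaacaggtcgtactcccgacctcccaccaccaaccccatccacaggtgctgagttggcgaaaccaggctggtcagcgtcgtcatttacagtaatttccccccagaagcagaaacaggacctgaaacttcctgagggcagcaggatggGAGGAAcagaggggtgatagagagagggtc
C1qc: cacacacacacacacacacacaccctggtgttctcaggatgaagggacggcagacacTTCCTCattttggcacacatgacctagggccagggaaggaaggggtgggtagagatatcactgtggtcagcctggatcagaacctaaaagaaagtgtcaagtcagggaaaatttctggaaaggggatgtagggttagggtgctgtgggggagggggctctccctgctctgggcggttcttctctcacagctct
Mrc1: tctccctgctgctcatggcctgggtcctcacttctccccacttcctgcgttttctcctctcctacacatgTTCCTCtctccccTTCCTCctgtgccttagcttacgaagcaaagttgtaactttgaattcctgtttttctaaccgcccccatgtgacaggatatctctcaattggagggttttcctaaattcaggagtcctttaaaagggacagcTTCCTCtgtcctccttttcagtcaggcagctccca
The match in C1qb began 30 bases before the RefSeq start and the match in C1qc 193 bases before it. The 3 matches in Mrc1 began 180, 167 and 35 bases before its RefSeq start. The GENCODE gene models of C1qc and Mrc1 start inside these windows, at 136893065 and 14229392, so distances from the GENCODE starts differ. The 7 genes with an entry had 8 windows in all, so counts of genes stand here beside shares of windows. On either strand GAGGAA was present in the windows of 5 of these 7 genes (Mrc1, Ptprc, C1qb, C1qc and Cd68) and in 23.3% of 32851 windows of the same length. It was 1 of 7 motifs searched on both strands. The longer PU.1 letters GAGGAAG contain it and were in 2 of the 7 windows (10.6% of all windows). With a T added, as GAGGAAGT, they were in 1 (2.44%). The letters AGGAAGT overlap it and were in 4 (7.69%). TATAAA was found in the window of Ptprc alone (12.4% of all windows). The pattern TTGCNNAA was found in that of Cd68 alone (9.56%). The shorter PU.1 letters GGAAGT were in 4 of the 7 windows and in 19.7% of all windows.

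Reads recovered from the deposited values numbered between 6454322 and 24791414 per library, and levels are given as CPM, each library scaled to the same total of reads. The sorted fractions carried the transcripts their labels call for. Dazl, a germ cell RNA-binding protein, averaged 1743 CPM in female PGCs and 1606 CPM in male PGCs, against 48.0 CPM in female soma and 2.87 CPM in male soma. Female soma libraries 1 and 2 held 40.5 and 98.2 CPM of Dazl, and female soma library 3 held 5.21 CPM. The part of these germ cell reads in the comparisons of female soma was not tested, and values without both libraries are given where they differ. Of the soma lineages, Amh of the testis averaged 1.34 CPM in female soma and 437 CPM in male soma. Foxl2 of the ovary averaged 62.1 CPM in female soma and 1.20 CPM in male soma. The measured genes reached 5.07 CPM in 3 or more libraries, and Foxl2 did so only through female soma. Its values are therefore not support for the labels.

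Csf1r encodes the receptor tyrosine kinase on which the lineage depends, and it lies on chromosome 18. In PGCs its level was 0.492, 2.94 and 0.956 CPM in the female libraries and 0.430, 0 and 0 CPM in the male libraries. Its level was 125, 159 and 102 CPM in female soma and 53.1, 44.9 and 69.9 CPM in male soma. Every soma library stood far above every PGC library, and every female soma library stood above every male soma library. On the deposited read depth scale, which draws low values together, Csf1r differed between female and male soma by 0.97 ± 0.34 (log2, SE), with an adjusted p of 0.0515 in limma. The same comparison of the recovered reads with limma's voom gave 1.17 ± 0.17 (log2, SE) and an adjusted p of 0.000109.

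Csf1, the gene of the ligand, was also higher in female soma. It had 22.3, 18.4 and 28.5 CPM in female soma and 7.21, 13.51 and 13.43 CPM in male soma, and the groups did not overlap. Its read depth difference was 0.68 ± 0.18 (log2, SE), with an adjusted p of 0.0133 in limma. Il34, the gene of the other ligand, was not analysed here.

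**Figure D1:**
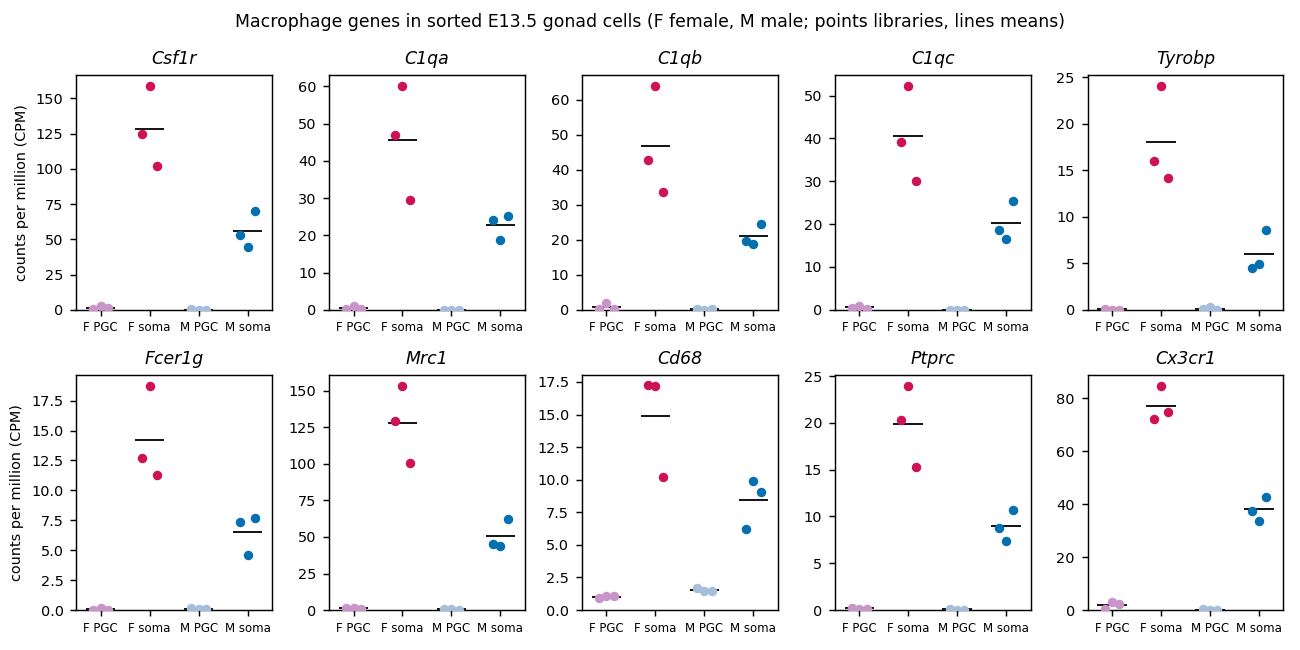
Level of each of the 10 genes in CPM (linear axis from 0, a scale of its own per gene) in each library of female PGC, female soma, male PGC and male soma. Points are libraries and lines are group means of 3 libraries; all PGC points lie at or below 2.94 CPM, and the female soma points lie above the male soma points for every gene.

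C1qa, C1qb and C1qc encode the 3 chains of C1q, the molecule that starts the classical complement pathway. The genes stand side by side on the minus strand of chromosome 4, from 136880129 to 136898803 in GRCm38, a span of 18.7 kb, in the order C1qb, C1qc, C1qa. C1qa had 46.8, 60.1 and 29.5 CPM in female soma and 24.1, 18.6 and 25.2 CPM in male soma. C1qb had 42.7, 64.0 and 33.7 CPM in female soma and 19.7, 18.8 and 24.6 CPM in male soma. C1qc had 39.2, 52.3 and 30.0 CPM in female soma and 18.6, 16.4 and 25.5 CPM in male soma. All 3 chains were highest in female soma library 2, and for none of them did female soma reach down to the male soma values. C1qc rose by 0.73 ± 0.19 (log2, SE; adjusted p = 0.0124, limma) and C1qa by 0.71 ± 0.24 (adjusted p = 0.0424) on the read depth scale. C1qb, with 0.83 ± 0.32, had an adjusted p of 0.0822 and did not pass.

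The chains kept close proportions to one another in the soma libraries. The ratio of C1qa to C1qb reads was 1.10, 0.940 and 0.875 in female soma and 1.23, 0.989 and 1.02 in male soma. The ratio of C1qc to C1qb reads was 0.919, 0.818 and 0.891 in female soma and 0.944, 0.872 and 1.04 in male soma. Both ratios overlapped between the sexes, and over the soma libraries they ran from 0.875 to 1.23 and from 0.818 to 1.04.

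Tyrobp and Fcer1g encode the adaptors DAP12 and the Fc receptor gamma chain, small membrane proteins that carry the activating (ITAM) signal of many myeloid receptors. Tyrobp had 16.0, 24.1 and 14.1 CPM in female soma and 4.48, 4.96 and 8.54 CPM in male soma. Fcer1g had 12.7, 18.7 and 11.3 CPM in female soma and 7.32, 4.64 and 7.67 CPM in male soma. The groups did not overlap for either adaptor. Tyrobp rose by 0.97 ± 0.16 (log2, SE) with an adjusted p of 0.000618, the smallest of the 10 genes on the read depth scale (limma), and Fcer1g rose by 0.65 ± 0.15 with an adjusted p of 0.00511. Only 2 male soma libraries reached 5.07 CPM for Fcer1g and only 1 for Tyrobp, and the tables hold genes that reached that level in 3 or more libraries. Both adaptors were therefore measured only through female soma, where they are high, and their tests are not support for a difference. Tyrobp reads exceeded Fcer1g reads 1.26, 1.29 and 1.25 times in the female soma libraries. In male soma the same ratio was 0.612, 1.07 and 1.11, below all female values, with 41 reads of Tyrobp behind the lowest.

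Mrc1 encodes CD206, the mannose receptor that clears glycoproteins from the surroundings. It had 129, 153 and 101 CPM in female soma and 45.2, 43.9 and 62.3 CPM in male soma. Its rise of 1.07 ± 0.26 (log2, SE; adjusted p = 0.0089, limma) was the largest of the 10 on the read depth scale, while Tyrobp had the largest ratio of mean CPM. Mrc1 and Csf1r ran side by side: the ratio of Mrc1 to Csf1r reads was 1.04, 0.964 and 0.986 in female soma and 0.852, 0.978 and 0.890 in male soma.

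Cd68 encodes a glycoprotein of lysosome and endosome membranes that is abundant in macrophages but not restricted to them. It had 17.2, 17.2 and 10.2 CPM in female soma and 6.23, 9.92 and 9.08 CPM in male soma. Its female soma library 3 came within a short distance of male soma library 2, without overlap. Cd68 rose by 0.46 ± 0.15 (log2, SE; adjusted p = 0.0347, limma), and voom on the reads gave 0.66 with an adjusted p of 0.0503.

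Ptprc encodes CD45, a membrane phosphatase of white blood cells and their precursors. It had 20.3, 23.9 and 15.3 CPM in female soma and 8.74, 7.42 and 10.7 CPM in male soma, with no overlap. Its rise on the read depth scale was 0.73 ± 0.14 (log2, SE; adjusted p = 0.00144, limma).

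Cx3cr1 encodes the receptor of fractalkine, which is carried by microglia and other tissue macrophages. It had 72.1, 84.5 and 74.8 CPM in female soma and 37.5, 33.8 and 42.8 CPM in male soma, which lie apart. The read depth difference was 0.79 ± 0.30 (log2, SE) with an adjusted p of 0.0717 in limma, and voom on the reads gave 0.99 with an adjusted p of 0.000132. The GENCODE model of Cx3cr1 spans 168264 bases and overlaps 9 other genes, and the strand setting of the counting was not given in the sources used here. Cx3cl1, the gene of its ligand, went the other way, with 6.45, 5.06 and 7.25 CPM in female soma and 16.6, 13.6 and 13.4 CPM in male soma. Its fall was -0.71 ± 0.18 on the read depth log2 scale (SE; adjusted p = 0.00961, limma).

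Over the 10 genes, the ratio of mean CPM in female soma to that in male soma ran from 1.77 for Cd68 to 3.02 for Tyrobp, with a median of 2.20. Every female soma library stood above every male soma library for 10 of 10 members, an arrangement found in 22.7% of all genes. Both measures include Tyrobp and Fcer1g, which were measured only through female soma and add no support. Of the other 8 members Mrc1 had the highest ratio, 2.53, and none of the 8 overlapped. On the read depth scale 7 of 10 members were higher in female soma at an adjusted p under 0.05 in limma, and 13.3% of all genes were. Lower calls were made in 0 of 10 members and in 11% of all genes. Tyrobp and Fcer1g, measured only through female soma, are 2 of the 7, and 5 of the other 8 members were called. The members' median difference was 0.76 and that of all genes was 0.01 (log2). Voom on the reads called 9 of 10 higher, Tyrobp and Fcer1g among them, against 12.1% of all genes. The count rests partly on female soma library 2: without it 4 members were called, with an adjusted p of 0.158 for C1qa, 0.115 for Cd68 and 0.0533 for C1qc, and without female soma libraries 1 and 2, the pair with the germ cell reads, 1 was. All 10 differences on the read depth scale stayed positive when any 1 library was left out. In bulk samples, fewer cells of a type and less RNA per cell cannot be told apart.

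Summed over the 10 genes, the soma libraries ran in the order female soma 2 with 657 CPM, female soma 1 with 521 CPM, female soma 3 with 422 CPM, male soma 3 with 286 CPM, male soma 1 with 225 CPM and male soma 2 with 203 CPM. The shares of 7 members in that sum overlapped between the sexes, and those of Mrc1, Tyrobp and C1qc did not. Csf1r took 24.1% ± 0.17 of it in female soma and 23.4% ± 1.21 in male soma (SD, n = 3 each). Mrc1 took 24.0% ± 0.751 in female soma and 21.1% ± 0.906 in male soma, and Tyrobp took 3.36% ± 0.297 in female soma and 2.47% ± 0.497 in male soma. Cx3cr1 took 14.8% ± 2.57 in female soma and 16.1% ± 0.969 in male soma. The share of C1qc was lower in female soma, with 7.54% ± 0.425 against 8.41% ± 0.44 in male soma.

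To compare the genes with one another, reads were divided by exon length (RPKM). In female soma C1qa averaged 43.7 ± 14.8 RPKM and C1qb 43.0 ± 14.3 RPKM (SD, n = 3). Below them came Tyrobp with 27.1, Csf1r with 22.3, C1qc with 21.0, Mrc1 with 20.1, Cx3cr1 with 17.1, Fcer1g with 16.3, Cd68 with 11.8 and Ptprc with 1.08 RPKM. Only the step between Cd68 and Ptprc parted neighbours without overlap in female soma. Within libraries, C1qb stood above Tyrobp, Tyrobp above Csf1r, Csf1r above C1qc and Fcer1g above Cd68 in 3 of 3. The order of the other overlapping neighbours held in 1 or 2 libraries. In male soma C1qa averaged 21.8 ± 3.38 RPKM and C1qb 19.3 ± 2.85 RPKM, followed without overlap by C1qc with 10.4 RPKM. Within male soma libraries, C1qa stood above C1qb and C1qc above Csf1r in 3 of 3. Csf1r with 9.69, Tyrobp with 8.98, Cx3cr1 with 8.44, Mrc1 with 7.92, Fcer1g with 7.48 and Cd68 with 6.69 RPKM formed an unbroken run, and Ptprc with 0.488 RPKM stood below it. The exon length of Ptprc joins all its annotated isoforms, 18313 bases, which lowers its RPKM.

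Scaled to cell number instead of read depth, female soma and male soma were not distinguished by these genes. Csf1r was 5.45, 5.67 and 5.45 in female soma and 4.87, 4.60 and 6.19 in male soma (log2, cell number scale). Mrc1 was 5.50, 5.61 and 5.43 in female soma and 4.64, 4.57 and 6.02 in male soma on that scale. C1qc was 3.78, 4.06 and 3.68 in female soma and 3.36, 3.15 and 4.73 in male soma. Male soma libraries 1 and 2 lay below female soma and male soma library 3 lay above it for all 3 of these genes, so the groups overlapped. The differences ran from -0.09 ± 0.56 for Cd68 to 0.71 ± 0.93 for Tyrobp (log2, SE), with a median of 0.22. Of the 10 members, 0 passed in limma, 0 had an unadjusted p under 0.05, and 2 passed with array weights, against 2.86% of all genes called higher and 63.6% called lower in the main test.

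The whole transcriptome moved on the cell number scale, where the median difference over all genes was -0.86 (log2, female minus male soma). Relative to that median the members stood between 0.76 and 1.57 higher. Male soma library 3 also stood apart in all genes, with a median of 5.25 against 4.29 and 4.33 in the other male soma libraries. Without it, the members' differences ran from 0.29 for Cd68 to 1.30 for Tyrobp and the median gene lay at -0.54, and again 0 members passed.

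**Figure D2:**
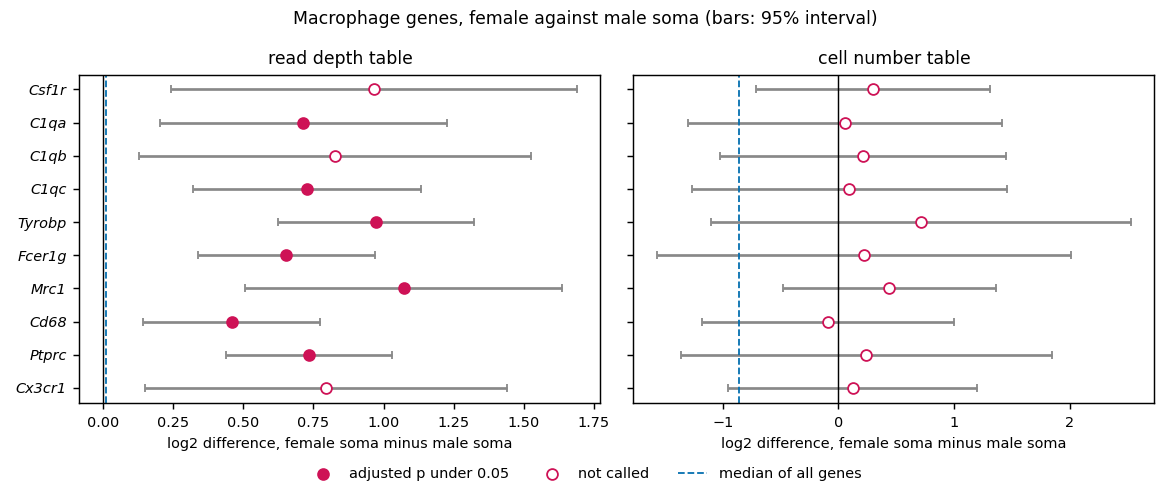
Difference of each gene between female soma and male soma (log2, female minus male) on the read depth scale (left) and the cell number scale (right), with 95% intervals from limma. Filled points passed an adjusted p of 0.05, and the dashed line is the median of all 12845 genes, at 0.01 on the left and -0.86 on the right.

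PGC libraries held few macrophage reads. As 0 of the 10 members reached 5.07 CPM in any PGC library, each entered the tables through its soma libraries. The count of members lower in PGCs is therefore a description: 10 of 10 in females and 10 of 10 in males on the read depth scale (limma), where 42.3% and 43.7% of all genes were. By cell number it was 10 of 10 in females and 9 of 10 in males, where 11.5% and 19.8% of all genes were lower. Cd68 in males was the exception, with -0.78 ± 0.56 (log2, SE; adjusted p = 0.178, limma).

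In pooled reads the PGC level was a median of 0.966% of the soma level in females and 0.701% in males. C1qc had 18 reads in female PGCs against 930 in female soma, or 1.15% of the soma level (exact 95% interval 0.680% to 1.83%). In male PGCs it had 1 read against 1046 in male soma, or 0.0794% (0.00201% to 0.443%). Csf1r stood at 0.805% of soma in females (0.574% to 1.10%) and at 0.259% in males (0.118% to 0.493%). The intervals cover counting error only.

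Cd68 was the member with most reads in male PGCs, 97 in all. It was listed at 0.895, 1.08 and 1.05 CPM in female PGCs and at 1.67, 1.48 and 1.47 CPM in male PGCs, and the groups did not overlap. That was 6.52% of the female soma level (4.54% to 9.13%) and 17.1% of the male soma level (13.6% to 21.4%). No other member passed 2.07% in either sex.

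**Figure D3:**
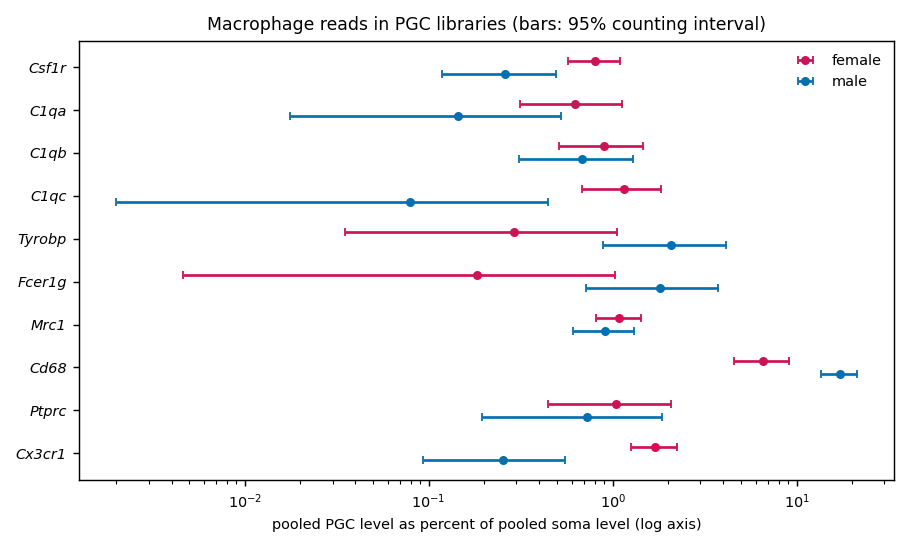
Level of each gene in pooled PGC libraries as a percent of its level in pooled soma libraries of the same sex (log axis), with exact 95% intervals for counting error. Cd68 lies at 6.52% in females and 17.1% in males, and the other genes lie at or below 2.07%.

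Between the PGCs of both sexes, levels were low and spread unevenly. On the read depth scale 4 of 10 members were higher in female PGCs (limma), where 32.8% of all genes were. They were Csf1r by 1.35 ± 0.34, Cx3cr1 by 1.45 ± 0.30, Mrc1 by 0.85 ± 0.26 and C1qc by 0.74 ± 0.19 (log2, SE). Cx3cr1 had 0.403, 2.94 and 2.20 CPM in female PGCs and 0.287, 0 and 0 CPM in male PGCs. Female PGC library 2, the shallowest, was the highest PGC library for Csf1r, Cx3cr1, C1qa, C1qb and C1qc. Voom on the reads called 2 of 10 (C1qc and Cx3cr1), against 33.3% of all genes, and the cell number scale called 5 of 10, against 24.3%, with C1qa as the fifth. The step between PGCs and soma also differed between the sexes for some members. On the read depth scale 4 of 10 (Tyrobp, Fcer1g, Cd68 and Ptprc) had a larger step down in females, as had 28.9% of all genes by the interaction term of limma. On the cell number scale 5 of 10 (Cx3cr1, Csf1r, C1qc, C1qa and Mrc1) had a smaller step down in females, with 42.8% of all genes called in that direction. Voom on the reads called 0 of 10, against 26.3% of all genes higher and 26% lower, and 2 of 10 had an unadjusted p under 0.05 in voom.

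Markers of other soma cells were present in PGC libraries at levels that differed widely between lists. Summed over each list, female PGC libraries held 0.839% to 2.30% of the 10 macrophage genes' soma level and male PGC libraries 0.782% to 1.43%. Stroma markers stood at 0.0823% to 0.315% in female PGC libraries and at 0.0955% to 0.534% in male PGC libraries. Pregranulosa markers stood at 8.36% to 12.7% in female PGC libraries, and Sertoli markers at 7.49% to 16.8% in male PGC libraries. The pregranulosa sum was 49.5, 70.7 and 46.5 CPM in the female PGC libraries, spread unevenly over its genes. Irx3 held 18.2, 21.8 and 19.6 CPM of it, and Foxl2 held 1.25, 4.34 and 0.956 CPM. Leydig markers stood at 0.0723% to 0.163% in male PGC libraries. Erythroid markers stood at 0.0133% to 0.0249% in female PGC libraries and at 0.0947% to 0.2% in male PGC libraries. The part of soma cells among the sorted PGCs in these reads was not tested.

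Other genes of the macrophage programme were read in lists on the read depth scale, as counts of the measured genes. On that scale 13.3% of all genes were higher in female soma and 11% lower. Of the genes for leucocyte cytoskeleton and oxidase, 14 of 18 were higher in female soma and 0 lower (limma), with a median of 0.81 against 0.01 for all genes (log2). Some listed genes reached 5.07 CPM in 3 or more libraries only through female soma, and without them the count was 10 of 13. Laptm5, a lysosomal membrane protein of blood cells, averaged 83.8 ± 4.59 CPM in female soma and 39.1 ± 8.08 CPM in male soma, each a mean of 3 libraries with its SD. Lcp1, an actin bundler, averaged 78.4 ± 18.4 CPM in female soma and 37.6 ± 3.36 CPM in male soma. Dock2, which steers leucocyte migration, averaged 24.8 ± 5.70 CPM in female soma and 8.34 ± 2.33 CPM in male soma. Of the ITAM and Fc receptor signalling genes, 10 of 13 were higher and 1 was lower, and 6 of 9 were higher among those measured without female soma. Btk, a kinase of that pathway that was measured only through female soma, averaged 9.90 ± 3.16 CPM in female soma and 3.70 ± 1.21 CPM in male soma. Of tissue macrophage surface genes, 7 of 11 were higher and 0 lower, or 4 of 8 higher without those measured only through female soma, among them Adgre1, the gene of F4/80, with 37.0 ± 12.2 CPM in female soma and 12.4 ± 2.60 CPM in male soma. F13a1, a clotting factor subunit made by macrophages, had 78.0, 80.1 and 53.9 CPM in female soma and 21.5, 20.2 and 39.9 CPM in male soma.

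The remaining lists of the programme gave mixed counts, beside 13.3% of all genes higher and 11% lower on the read depth scale. Of the transcription factors, 3 of 10 were higher in female soma (Spi1, Ikzf1 and Runx1) and 5 lower (Irf8, Cebpa, Cebpb, Zeb2 and Mef2c), with a median of -0.50. Runx1, known in the fetal gonad from pregranulosa cells as well as from blood, averaged 66.3 ± 11.7 CPM in female soma and 14.6 ± 3.03 CPM in male soma (SD, n = 3 each). Zeb2 averaged 143 ± 10.4 CPM in female soma and 290 ± 8.71 CPM in male soma, and Cebpa 14.5 ± 2.13 CPM in female soma and 65.6 ± 1.43 CPM in male soma. Scavenger and uptake receptors counted 2 of 7 higher, Stab1 and Lyve1, and 1 lower, Tyro3. Lysosome genes counted 3 of 11 higher (Ctss, Ctsb and Lyz2) and 2 lower (Ctsl and Cd63). Complement partners of C1q counted 3 of 10 higher and 1 lower. C3ar1, the receptor of C3a, averaged 22.1 ± 7.53 CPM in female soma and 9.80 ± 2.93 CPM in male soma.

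Markers of several other blood lineages were read on the same scale, where 13.3% of all genes were higher in female soma and 11% lower. Of monocyte and neutrophil markers, 5 of 7 were higher in female soma and 0 lower. All 5 (Ccr2, S100a8, S100a9, Ngp and Ltf) were measured only through female soma, and 0 of the other 2 were called. Their summed level ran from 112 to 184 CPM in female soma and from 53.9 to 98.9 CPM in male soma. S100a9, a neutrophil calcium binder, averaged 22.8 ± 3.87 CPM in female soma and 9.37 ± 3.97 CPM in male soma (SD, n = 3 each). Of mast cell markers, 3 of 5 were higher and 0 lower, with Cma1 and Cpa3 measured only through female soma. The third was Gata2, which averaged 200 CPM in female soma, 94.5 CPM in male soma and 270 CPM in female PGCs. Cpa3, a protease of mast cell granules, had 40.6, 83.8 and 47.9 CPM in female soma and 3.71, 8.27 and 8.70 CPM in male soma, a ratio of means of 8.33. Of erythroid markers, 7 of 9 were higher and 0 lower, and all 9 were measured without female soma as well, with summed levels of 17621 to 29575 CPM in female soma and 3422 to 8602 CPM in male soma. Of megakaryocyte and platelet markers 2 of 3 were higher, Pf4 (measured only through female soma) and Plek, which also stand on the macrophage surface and cytoskeleton lists. None of these lists had a measured marker at 0 in all libraries of either soma group, and their part in the results for the 10 genes was not tested. With erythroid reads left out, voom called 9 of 10 macrophage genes higher in female soma.

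Endothelial markers gave a mixed count, with 1 of 11 higher (Emcn) and 2 lower (Cdh5 and Sox18), beside 13.3% and 11% of all genes on the read depth scale. Their summed levels were 204 to 253 CPM in female soma and 171 to 258 CPM in male soma. Of lymphoid markers 1 of 11 was measured and it did not pass. Of dendritic cell and MHC class II markers 2 of 9 were measured, and Zbtb46, a transcription factor of dendritic and endothelial cells, was lower in female soma (-0.71, log2). With values scaled to cell number, 0 of 18 cytoskeleton and oxidase genes, 0 of 11 surface genes and 0 of 7 monocyte and neutrophil markers passed in either direction (limma), where 2.86% of all genes were called higher and 63.6% lower, while Cma1 and Cpa3 of mast cells and Hbb-y, Hba-x and Alas2 of erythroid cells were higher in female soma.

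**Figure D4:**
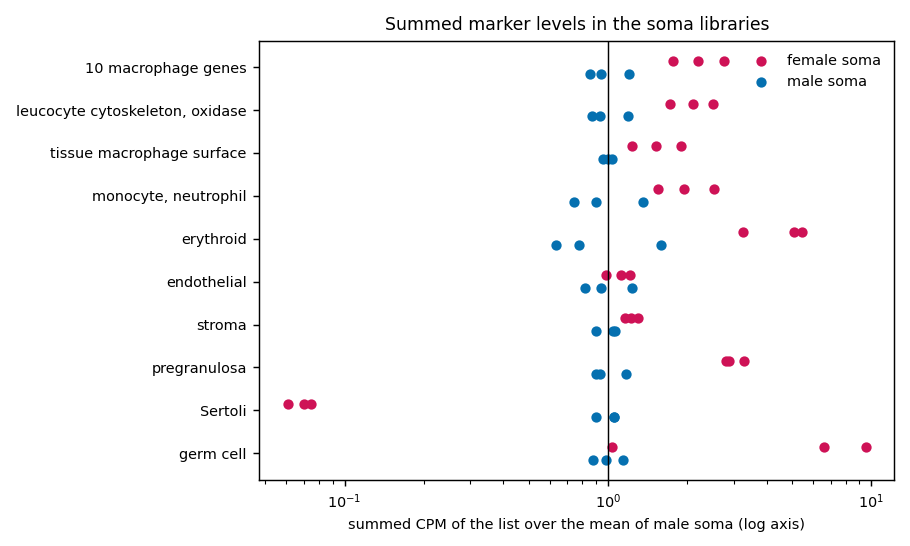
Summed CPM of each gene list in the 3 female soma and 3 male soma libraries, divided by the mean of male soma (log axis, line at 1). The 10 macrophage genes and the leucocyte, monocyte and neutrophil and erythroid lists lie to the right in all female soma libraries. The tissue macrophage surface, stroma and pregranulosa lists do so as well. Measured only through female soma were 5 of 7 monocyte and neutrophil, 4 of 8 pregranulosa and 5 of 18 leucocyte genes. So were 3 of 11 surface genes and 2 of the 10 macrophage genes, and such genes add no support. Endothelial markers overlap between the sexes, Sertoli markers lie to the left, and germ cell markers are high in female soma libraries 1 and 2.

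The genes whose log2 CPM followed the mean of the 10 members most closely over the 6 soma libraries included Rgs5, Chadl, Trmt10a, Dennd6b, Stmn2, 1700037H04Rik, Kif5c, Wdfy4 and Rnf128, with Pearson's r between 0.993 and 0.998. They share the gap between female and male soma, and none of those named was on a leucocyte list. Rgs5 averaged 26.1 CPM in female soma and 3.98 CPM in male soma. Among the 50 closest genes were 4 of the 18 cytoskeleton and oxidase genes, among them Coro1a, Lcp1 and Rac2, and 0 of the 9 erythroid markers. Over all 12 libraries, where the step between PGCs and soma sets most of the likeness, the closest genes were Ctsb, Fcgr1, Ces2g, Car2, Hand2, Cybb, Tubb4a, Agtr2, Slco2b1 and Ednrb, with r between 0.995 and 0.998. The values are descriptions, since the libraries of a group share their cell composition.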

How the data were processed

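RNA was measured in 12 libraries of sorted mouse gonad cells at embryonic day 13.5. Per the labels' protocols, each sample received ERCC spike-in RNA per sorted cell, and a directional messenger RNA kit was used. Per the submitters' processing notes, mm10 was the build and the tools were limma 3.28.14, DESeq2 1.12.3, edgeR 3.14.0, R 3.3.0, HTSeq 0.6.1p1, TopHat2 2.0.9 and Trim Galore 0.4.0, with no role or order stated. The authors deposited 2 tables of log2 values, read here as normalized to cell number and to read depth; the transform of the second was not given in the sources used here.

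In every library 100% of the cell number values inverted to whole reads (tolerance 0.001 reads, 0.5 added before the log), which gave depth and CPM. The deposited values of all 12 libraries entered a limma fit (version 3.58.1, R 4.3.3) of 4 group means with trended variance. P-values were adjusted by Benjamini-Hochberg across all 12845 genes, at a threshold of 0.05. The recovered reads were also tested with voom after TMM scaling (trimmed mean of M values). Alternatives were leaving out libraries, low-value filters, a fold threshold, other scalings, array weights and a replicate block. The tests were tried on simulated data. Nothing in the labels says that replicates came from separate animals, so p-values measure at most the spread between these libraries. On the cell number scale limma took each variance from the trend over all genes. SEs and p-values there do not measure a gene's own spread between libraries. No replicate pair agreed within counting noise (chi-square of 5.43 to 30.4 for each degree of freedom).

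Gene positions and exon lengths came from GENCODE vM21 (GRCm38). The members and gene lists were chosen with earlier results of these data known. Named genes are the 10 members, the ligand genes, up to 4 genes of each list (the 2 highest in soma and the 2 with the largest sex difference), label checks and the 10 genes most like the members over 6 and over 12 libraries. Genes named only as called members of a list were chosen after their values were seen. Some genes that the rule names are not reported here.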

Additional observations from a re-analysis of the deposited data

Results flagged for a closer look

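For 9 values the step between PGCs and soma differed between females and males, by the interaction term of limma with Benjamini-Hochberg adjustment over all genes. On the read depth scale the difference of steps (female minus male, log2, ± SE) was -1.03 ± 0.23 for Tyrobp (adjusted p = 0.0018), -0.70 ± 0.21 for Fcer1g (adjusted p = 0.0106), -0.68 ± 0.21 for Cd68 (adjusted p = 0.012) and -0.59 ± 0.19 for Ptprc (adjusted p = 0.0192). These 4 of 10 members compare with 28.9% of all genes called lower. Their levels in PGCs were at or below 1.67 CPM, and Tyrobp and Fcer1g were measured only through female soma.

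On the cell number scale other members were called, in the opposite direction. SEs and p-values on this scale come from the variance trend over all genes, not from the gene's own spread. The SD of the male PGC libraries was 2.18 for Cx3cr1, 2.50 for Csf1r, 0.975 for C1qc, 2.64 for Mrc1 and 0.761 for C1qa (log2). The difference of steps was 4.43 ± 0.78 for Cx3cr1 (adjusted p = 1.4e-07), 3.78 ± 0.73 for Csf1r (adjusted p = 2.01e-06), 3.73 ± 0.98 for C1qc (adjusted p = 0.000698), 1.97 ± 0.66 for Mrc1 (adjusted p = 0.00913; 0.46 without male PGC replicate 3, adjusted p = 0.576) and 2.47 ± 0.98 for C1qa (adjusted p = 0.0276). These 5 of 10 compare with 42.8% of all genes called higher, and the median gene lay at 0.91. They rest on few reads: in female and male PGCs Cx3cr1 had 51 and 6 reads in all, Csf1r 40 and 9, C1qc 18 and 1, Mrc1 54 and 29, and C1qa 11 and 2. Voom on the recovered reads called 0 of 10, with an unadjusted p under 0.05 for 2.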

How the results depend on the processing

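Limits. The members lie at low levels, so leaving out the lowest 25% of genes removed all 10 from both tables and gave no value; a filter at 5% was added after seeing the data, as was leaving out female soma libraries 1 and 2 together. Of the alternative counts of members called, 204 stayed within 1.5 times the main count and 16 did not.

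Between female and male soma on the read depth scale, 7 members were called in the main test, 4 to 10 with each library left out (4 without female soma replicate 2), 1 without female soma libraries 1 and 2 and 1 at a log2 fold of at least 1. On the cell number scale 0 were called, 0 to 0 with each library left out, and 2 with array weights. Between female and male PGCs on the read depth scale 4 became 2 at a log2 fold of at least 1, 2 with voom and 2 with voom without erythroid reads. For the difference of steps on the read depth scale, 4 became 2 without the lowest 5% of genes, 1 at a log2 fold of at least 1, 1 without female soma libraries 1 and 2, and 0 with voom, with or without erythroid reads. By cell number 5, all higher, became 3 with median centring (2 higher and 1 lower), 3 without female soma libraries 1 and 2, and 3 to 5 with each library left out (3 without male PGC replicate 3 and 3 without male soma replicate 3). By cell number the difference of steps of Mrc1 ranged from 0.46 to 2.93 with each library left out. Between female and male PGCs Mrc1 ranged from 0.47 to 1.14 on the read depth scale and from 0.90 to 3.36 by cell number, each lowest without male PGC replicate 3. The cause was not tested.

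Between female and male PGCs and for the difference of steps, single members were followed only where the main test called them, a choice made after seeing the data. Some signs turned. The difference of steps of Ptprc on the read depth scale was 0.47 with voom and 0.45 with voom without erythroid reads. On the cell number scale, Cd68 between female and male soma was 0.79 with median centring, 0.83 with quantile normalization and 0.62 with array weights, and without female soma libraries 1 and 2 C1qa was -0.27 and C1qc -0.066. With each library left out, the uncalled differences between female and male soma on that scale ranged from -0.24 to 0.45 for C1qa, -0.025 to 0.64 for C1qb, -0.20 to 0.59 for C1qc, -0.44 to 0.29 for Cd68, -0.0089 to 0.78 for Csf1r, -0.12 to 0.52 for Cx3cr1, -0.17 to 0.66 for Fcer1g and -0.049 to 0.68 for Ptprc.

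Same-numbered libraries of different groups did not deviate together (correlations of -0.36 to 0.07 on the read depth scale and -0.28 to 0.03 on the cell number scale). With the replicate block, 7 members were called between female and male soma on the read depth scale, 5 in place of 4 between female and male PGCs, and the other 8 counts of members called equalled those without it.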

Other observations

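Relatives of C1q that share its globular domain, but are made by other cells, were read as a list. Of 11 measured genes of the C1q and TNF related family, 0 were higher and 3 lower in female soma on the read depth scale (C1qtnf3, Cbln1 and Cbln4), with a median of -0.44 (log2). Of all genes, 13.3% were higher and 11% lower (limma). Cbln1, a secreted synaptic organiser, averaged 2.51 ± 0.701 CPM in female soma and 457 ± 22.5 CPM in male soma (SD, n = 3 each; -5.91 ± 0.13 on the read depth log2 scale, adjusted p = 2.24e-12, limma). Cbln4 averaged 1.69 ± 0.842 CPM in female soma and 19.0 ± 1.90 CPM in male soma. Emilin1, a protein of elastic fibres that carries the same domain, averaged 480 ± 116 CPM in female soma and 595 ± 58.3 CPM in male soma, with an adjusted p of 0.264 in limma.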
